A study of Mus musculus with 8 samples.

Results

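Coding retrogenes are intronless gene copies that arose when a messenger RNA was copied back into DNA and inserted elsewhere in the genome, and that still carry an open reading frame. A copy of this kind usually lacks the promoter and introns of its parent, and a poly-A tract often remains at its 3′ end. Because the transcripts of copy and parent are nearly the same, short reads cannot always be assigned to one of them, and the counts of both have to be read together. The 3 pairs described here are Hmga1b and its parent Hmga1, Eif3j2 and its parent Eif3j1, and Tpm3-rs7 and its parent Tpm3, which make 6 of the 39056 genes listed in the deposited counts. The 3 retrogenes were picked for their higher counts in HVCN1 null hearts, so their values are a description and carry no test, and neither do sums or shares that contain them. The parents were taken as the source genes of these copies, and since a read can be assigned to either gene of a pair, their values are not independent of that choice.

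Libraries were made from heart samples of male mice, each 3 months old. Of these, 4 were HVCN1 null, which lack the voltage-gated proton channel Hv1, and 4 were wild-type (WT). The study names a C57BL/6 background beside the WT mice, and its wording leaves unclear whether this covers the null mice too. Each library is from 1 heart, the part of the heart taken is not stated, and the sources used here say neither how the null allele was made nor whether the groups were littermates. Total counts ran from 25851255 to 38874640 per heart. Hvcn1, on chromosome 5, had 1 to 6 counts in the null hearts and 49 to 102 in the WT hearts (log2 fold change -4.20, SE 0.38, adjusted p = 0.000363, edgeR's quasi-likelihood test). The summed level of 6 ventricular cardiomyocyte markers was 49054 to 64764 CPM (counts scaled to the library size) in null hearts and 52721 to 63747 CPM in WT hearts. Atrial markers were uneven within both groups, at 308 to 4426 CPM in null hearts and 84.8 to 8169 CPM in WT hearts, while 3 smooth muscle markers were higher in the null hearts without overlap (269 to 517 CPM against 162 to 235 CPM, 1 of 3 called). What part these markers have in the values below was not tested. In bulk tissue, fewer cells of a type and less RNA per cell cannot be told apart.

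HMGA1 is a small chromatin protein that binds the minor groove of AT-rich DNA through AT hooks. Hmga1 (ENSMUSG00000046711) lies at chr17:27556497-27563674 on the plus strand of GRCm38, and Hmga1b (ENSMUSG00000078249) at chr11:120762794-120764419, also on the plus strand. The Hmga1b transcript is a single exon of 1626 bases, of which 1602 aligned to an Hmga1 transcript of 5 exons with an identity of 99.8%. All 3 substitutions lie in the 3′ UTR, and the coding sequence of 324 bases, stop codon included, is identical in copy and parent. The 24 bases past the alignment at the 3′ end of Hmga1b are 24 A. The start of the coding sequence, positions 1 to 50, is printed for both genes because it holds no base by which a read could be told apart, and therefore no capital, at chr17:27559569-27559618 and chr11:120762889-120762938.
Hmga1: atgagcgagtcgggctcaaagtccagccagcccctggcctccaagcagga
Hmga1b: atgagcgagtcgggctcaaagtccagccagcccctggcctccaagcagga

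TPM3 is a tropomyosin, a coiled-coil protein that lies along actin filaments. Tpm3 (ENSMUSG00000027940) lies at chr3:90072649-90100902 and Tpm3-rs7 (ENSMUSG00000058126) at chr14:113314608-113316754, both on the plus strand of GRCm38. GENCODE lists Tpm3-rs7 as protein coding and RefSeq lists it as a pseudogene. Its single exon of 2147 bases matched a Tpm3 transcript of 8 exons over 2105 bases with an identity of 99.1%, and 34 of the 41 bases past the alignment at its 3′ end are A. Of 13 substitutions, 10 lie in the 3′ UTR and 3 in the coding sequence. Counted from the first base of the copy's coding sequence, with the parent's base first, these are G72A, which leaves the amino acid as it is, and G98A and G127A, which change it. The coding sequence is 747 bases long in both genes, stop codon included. A pair of stretches that hold the 3 coding differences is printed below with the differing bases in capitals, since reads over them can tell copy from parent. The first covers coding positions 60 to 109, at chr3:90079791-90079840 and chr14:113314735-113314784.
Tpm3: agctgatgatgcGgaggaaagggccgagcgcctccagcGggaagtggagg
Tpm3-rs7: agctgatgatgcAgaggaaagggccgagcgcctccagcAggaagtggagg
The second covers coding positions 102 to 151, at chr14:113314777-113314826 in the copy, whereas in Tpm3 it spans 6632 bases of the genome, chr3:90079833-90086464, because an intron lies within it.
Tpm3: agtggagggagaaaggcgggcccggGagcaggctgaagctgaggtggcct
Tpm3-rs7: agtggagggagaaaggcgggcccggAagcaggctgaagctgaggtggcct

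EIF3J is a loosely bound subunit of the translation initiation factor eIF3, the complex that helps the small ribosomal subunit load messenger RNA. Eif3j1 (ENSMUSG00000027236) lies at chr2:122028546-122056598 on the plus strand and Eif3j2 (ENSMUSG00000043424) at chr18:43475418-43477796 on the minus strand. The single exon of Eif3j2, 2379 bases long, aligned over its whole length to an Eif3j1 transcript of 8 exons with an identity of 99.4%. The 4 substitutions lie outside the coding sequence, 1 in the 5′ UTR and 3 in the 3′ UTR, and 2 gaps take up 10 bases. The coding sequence is 792 bases in Eif3j2 and 786 bases in Eif3j1. In none of the 3 retrogenes did a substitution other than G98A and G127A of Tpm3-rs7 change an amino acid. This covers substitutions alone. What the gaps and the longer coding sequence of Eif3j2 mean for its protein was not examined.

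**Figure D1:**
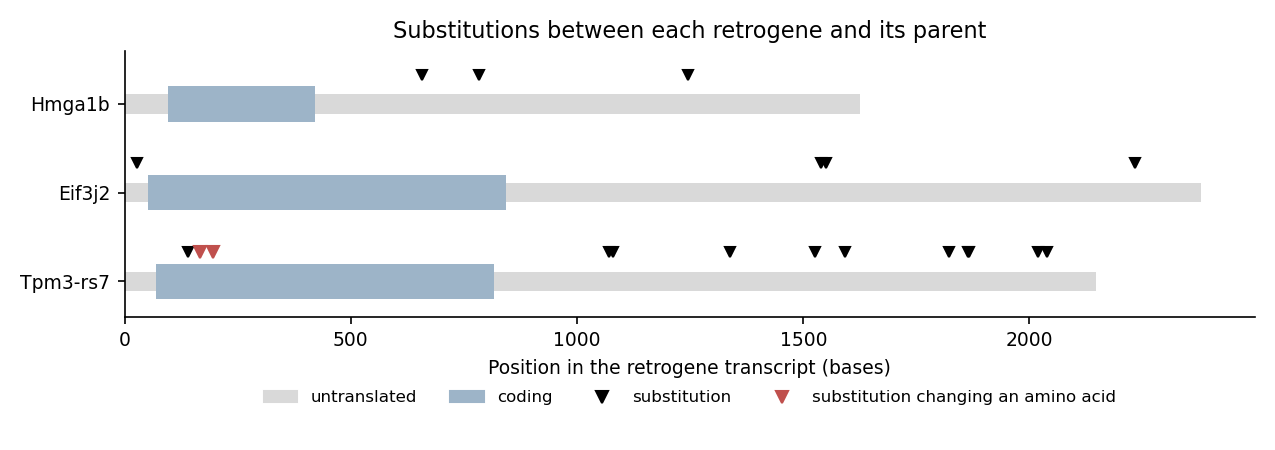
Positions of the substitutions between each retrogene and its parent along the retrogene transcript, in bases from its first base. Grey bars are untranslated sequence, blue bars the coding sequence, black triangles substitutions and red triangles the 2 substitutions that change an amino acid, both in Tpm3-rs7; the 3 substitutions of Hmga1b and the 4 of Eif3j2 lie outside the coding sequence.

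How much of each transcript can separate copy from parent was measured by sliding a window of 50 bases, the length of 1 read, over every annotated transcript. Of the windows of Hmga1b, 89.0% were also found in Hmga1, which left 174 windows of its own, meaning not found in the other gene of the pair. For Eif3j2 the shared part was 90.8%, with 215 own windows, 190 of them in no other annotated gene. For Tpm3-rs7 it was 69.4%, with 641 own windows. A smaller part of each parent was shared: 55.0% of the Hmga1 windows, 36.6% of the Eif3j1 windows and 23.2% of the Tpm3 windows occur in the copy. By number of own windows Tpm3-rs7 had the most and Hmga1b the fewest, while by percentage Eif3j2 had the least of its own.

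In the null hearts Hmga1b was at 10.5, 12.3, 26.1 and 12.5 CPM in hearts 1 to 4, from 349 to 687 counts. In the WT hearts, hearts 5 to 8, it was at 0.253, 0.309, 0.264 and 0.135 CPM, from 4 to 10 counts. Heart 3 stood well above the other null hearts, and the lowest null heart was far above the highest WT heart. Mean CPM (± SD, n = 4) was 15.3 ± 7.23 for null and 0.240 ± 0.0743 for WT hearts, a ratio of 63.8 and a log2 fold change of 5.95 (SE 0.38). Hmga1 ran the other way, at 28.0, 31.9, 21.0 and 35.5 CPM in null hearts and 44.3, 42.5, 38.2 and 43.0 CPM in WT hearts. All 4 null hearts were below all 4 WT hearts, and the lowest Hmga1 value was in heart 3, where Hmga1b was highest. The mean of Hmga1 was 29.1 ± 6.21 CPM in null and 42.0 ± 2.66 CPM in WT hearts (log2 fold change -0.53, SE 0.14, adjusted p = 0.143, edgeR's quasi-likelihood test), so the difference did not pass the threshold of 0.05. Added together, copy and parent came to 38.5, 44.2, 47.1 and 48.0 CPM in null hearts and 44.6, 42.8, 38.5 and 43.1 CPM in WT hearts. The sums of the groups overlapped and their means differed by 2.22 CPM (SE 2.53), a log2 fold change of 0.07 (SE 0.09). Heart 3, highest of the null hearts for Hmga1b and lowest for Hmga1, lay within the range of the other null hearts for the sum.

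Eif3j2 was at 8.17, 7.17, 7.90 and 8.28 CPM in null hearts, from 208 to 293 counts, and at 0.835, 0.989, 0.926 and 0.810 CPM in WT hearts, from 24 to 35 counts. Per kilobase of exonic sequence its level in WT hearts was 0.374 CPM per kb, against 0.148 for Hmga1b and 0.203 for Tpm3-rs7. Mean levels were 7.88 ± 0.499 CPM and 0.890 ± 0.0826 CPM (SD, n = 4 each), a ratio of 8.85 and a log2 fold change of 3.14 (SE 0.14). Eif3j1 was at 39.6, 42.9, 37.5 and 39.8 CPM in null hearts and at 49.6, 52.9, 46.8 and 53.6 CPM in WT hearts. Again every null heart was below every WT heart. The means of Eif3j1 were 39.9 ± 2.21 and 50.7 ± 3.11 CPM (log2 fold change -0.34, SE 0.08, adjusted p = 0.0900, edgeR's quasi-likelihood test), which did not pass the threshold. The sum of Eif3j2 and Eif3j1 was 45.4 to 50.02 CPM in null hearts and 47.8 to 54.4 CPM in WT hearts, with overlap. Its mean was 3.79 CPM lower in null hearts (SE 1.82), a log2 fold change of -0.11 (SE 0.08).

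Tpm3-rs7 was at 16.4, 14.4, 14.3 and 11.5 CPM in null hearts, from 377 to 545 counts, and at 0.304, 0.494, 0.476 and 0.473 CPM in WT hearts, from 12 to 18 counts. The groups were far apart, and heart 5 was the lowest of the WT hearts. Mean levels were 14.1 ± 1.99 and 0.437 ± 0.0892 CPM (SD, n = 4 each), a ratio of 32.4 and a log2 fold change of 5.02 (SE 0.19). Tpm3 was at 47.7, 42.3, 47.5 and 41.6 CPM in null hearts and at 65.7, 58.1, 57.7 and 54.1 CPM in WT hearts, and the groups did not overlap. The means of Tpm3 were 44.8 ± 3.30 and 58.9 ± 4.88 CPM (log2 fold change -0.40, SE 0.09, adjusted p = 0.0843, edgeR's quasi-likelihood test), which missed the threshold. The sum of Tpm3-rs7 and Tpm3 was 53.1 to 64.1 CPM in null and 54.6 to 66.0 CPM in WT hearts. Its mean was 0.424 CPM lower in null hearts (SE 3.46), a log2 fold change of -0.01 (SE 0.09), on the scale of counts not divided by length.

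**Figure D2:**
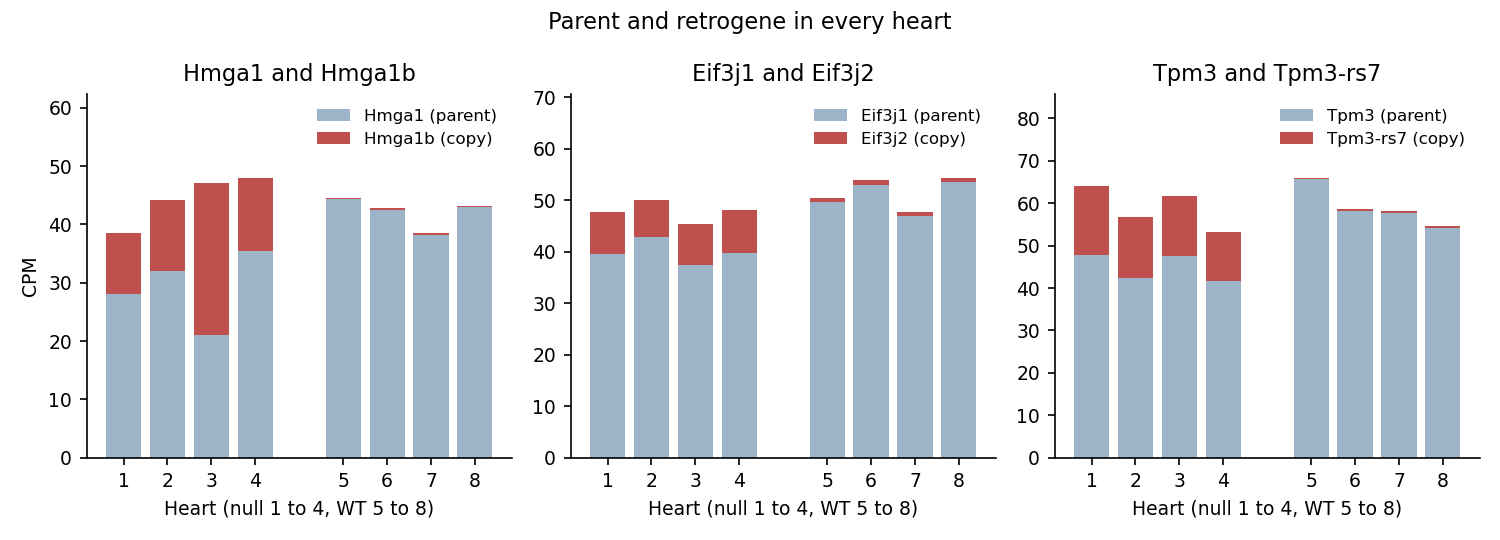
CPM of parent (blue) and retrogene (red, stacked on the parent) in each heart, null hearts 1 to 4 and WT hearts 5 to 8, for the 3 pairs. The red part is 10.5 to 26.1 CPM for Hmga1b, 7.17 to 8.28 CPM for Eif3j2 and 11.5 to 16.4 CPM for Tpm3-rs7 in null hearts and under 1 CPM in every WT heart, while the bars as a whole overlap between the groups.

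The same arrangement was thus seen in all 3 pairs: a copy that was higher in every null heart, a parent that was lower in every null heart, and a sum of CPM that overlapped between the groups. Over all 14796 genes tested, 1.14% were called in either direction and 0.743% were called higher, 3.6% had all null hearts above all WT hearts, and 3.45% had all null hearts below all WT hearts. The copies were picked from the higher genes, so nothing is read from their place among these shares. All 3 parents belonged to the 3.45%, and none of them to the called genes. The gain of the copy in mean CPM was 15.1 (SE 3.62) against a difference of 12.9 (SE 3.38) in the parent for the Hmga1 pair, 6.99 (SE 0.253) against 10.8 (SE 1.91) for the Eif3j pair, and 13.7 (SE 0.994) against 14.1 (SE 2.95) for the Tpm3 pair. Expressed per pair, the gain of the copy was 117%, 64.8% and 97.0% of what the parent was lower by. With DESeq2 in place of edgeR the adjusted p of Hmga1, Eif3j1 and Tpm3 was 0.0332, 0.00668 and 0.00446, under the threshold for all 3.

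**Figure D3:**
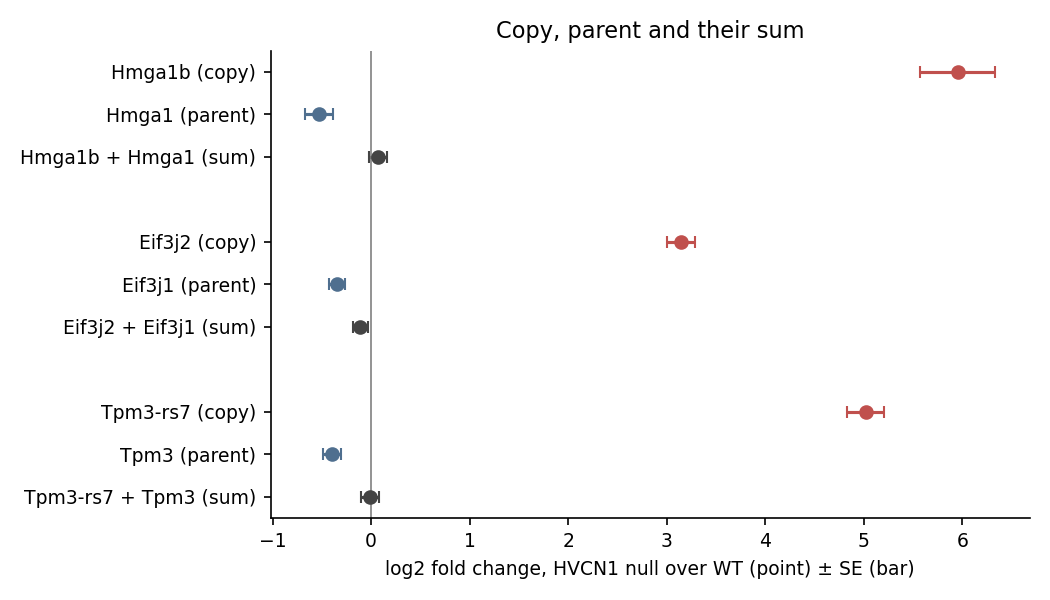
Log2 fold change of HVCN1 null over WT hearts (points) with its SE (bars) for each copy (red), parent (blue) and their summed counts (black), n = 4 hearts a group. Copies lie between 3.14 and 5.95, parents between -0.53 and -0.34 and sums between -0.11 and 0.07.

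As a share of the pair's counts, Hmga1b took 27.2%, 27.8%, 55.4% and 26.1% in null hearts and 0.313% to 0.722% in WT hearts. Eif3j2 took 14.3% to 17.4% in null hearts and 1.49% to 1.94% in WT hearts, and Tpm3-rs7 took 21.7% to 25.5% and 0.460% to 0.866%. Heart 3 was the only null heart in which a copy had more counts than its parent. The parents have more exonic sequence than the copies. It was counted over all annotated transcripts of a gene merged, 2125, 5830 and 6085 bases for Hmga1, Eif3j1 and Tpm3. The parent transcripts aligned to the copies have 1681, 5413 and 2230 bases, against 1626, 2379 and 2147 in the copies. Where the expressed parent transcript is shorter than the merged length, this scale understates the parent and raises the copy's share. The sum is then understated too, and more so in WT hearts, where the parent makes up nearly all of it. This raises the sum of null hearts relative to WT hearts. Per kilobase of exonic sequence, Hmga1b was at 9.44 and Hmga1 at 13.7 CPM per kb in null hearts, Eif3j2 at 3.31 and Eif3j1 at 6.85, and Tpm3-rs7 at 6.59 and Tpm3 at 7.36. On that scale the mean share of the copy in null hearts was 39.9% ± 14.7 for Hmga1b, 32.6% ± 2.37 for Eif3j2 and 47.1% ± 2.52 for Tpm3-rs7 (SD, n = 4). Adding copy and parent per kilobase gave sums that were higher in null hearts, by 0.22 on the log2 scale for the Hmga1 pair, 0.16 for the Eif3j pair and 0.50 for the Tpm3 pair, so the direction of the Eif3j and Tpm3 sums turned with the length scale. These sums were 9.75 to 10.4 CPM per kb in null and 8.42 to 9.53 in WT hearts for the Eif3j pair, and 12.2 to 15.5 against 9.11 to 10.9 for the Tpm3 pair, without overlap in either. For the Hmga1 pair the groups overlapped, at 19.6 to 25.9 and 18.1 to 21.02 CPM per kb. Counts were divided instead by the windows of 50 bases that are a gene's own. This would apply to single reads if those matching both genes had been left out. The reads were paired, so a pair could be assigned through either of its reads. Windows of a parent were pooled over all its annotated transcripts, which raises the copy's share where fewer of them are expressed. On this scale the copy took 75.5%, 77.0% and 70.2% of its pair in null hearts and 3.66%, 23.0% and 5.34% in WT hearts. For the Eif3j pair these windows numbered 215 in the copy and 3665 in the parent. Only 190 and 2839 of them occur in no gene outside the pair, so there the scale holds less well. How reads that match both genes were counted is not given in the sources used here, and none of the 3 scales fixes the share.

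Other copies of the 3 parents were sought in the annotation at an identity of at least 90% over at least 50% of their exonic length. There were 10, of which 7 were processed pseudogenes of Tpm3 and 3 were microRNA genes with Eif3j1 sequence, among them Gm27325 inside Eif3j2 and Gm47314 inside Eif3j1. The 7 pseudogenes had no count in any heart, and the microRNA genes are not analysed here. Upstream sequence differed between copy and parent for the pair that could be compared in RefSeq's promoter table for this build: over 250 bases before the start, Hmga1b had a GC content of 49.6% and 4 CpG sites, and Hmga1 had 72.8% and 34 at one start and 73.2% and 35 at the other. Over all promoters of the table the medians were 52.4% and 6. Eif3j1 and Tpm3 had entries as well, and Eif3j2 and Tpm3-rs7 did not.

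To place the 3 copies among genes of their kind, coding retrogenes were collected from the annotation as coding genes with a single coding exon that match a gene with at least 3 coding exons at 90% identity or more over at least 80% of the coding sequence. This gave 128 genes, of which 66 had a count and 34, the 3 copies included, passed the filter on low counts. Apart from the 3 copies, 15 of the 31 tested were higher and 16 lower in null hearts, with a median log2 fold change of -0.01, the same as the median of -0.01 over all genes tested. Of these 31, 1 was called, Gm10260 on chromosome 13, a copy of the ribosomal protein gene Rps18. It was at 7.72, 10.5, 24.2 and 13.0 CPM in null hearts and at 0.0506, 0.0309, 0.0264 and 0.135 CPM in WT hearts, the latter from 1 to 4 counts (log2 fold change 7.82, SE 0.53). With so few counts in WT hearts it passed the filter only through the null hearts, so its values are a description and its call is read no further. As with Hmga1b, heart 3 was the highest. Rps18 itself was at 83.9 to 117 CPM in null hearts and 115 to 198 CPM in WT hearts, which overlap (log2 fold change -0.58, SE 0.18, adjusted p = 0.211). The sum of Gm10260 and Rps18 was 110 ± 15.4 CPM in null and 143 ± 37.5 CPM in WT hearts (SD, n = 4), also with overlap. With Gm10260, 3 of the 31 had all null hearts above all WT hearts and 0 had all below. Over all genes tested the shares were 3.6% and 3.45%. Since Gm10260 entered the 31 only by being high in null hearts, nothing is read from this tally. The others beside Gm10260 were not called by edgeR's quasi-likelihood test. Ftl1-ps1, a copy of the ferritin light chain gene, had a log2 fold change of 1.27 (SE 0.27, adjusted p = 0.0547). Amd2, a copy of the S-adenosylmethionine decarboxylase gene Amd1, had 1.22 (SE 0.35, adjusted p = 0.177).

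**Figure D4:**
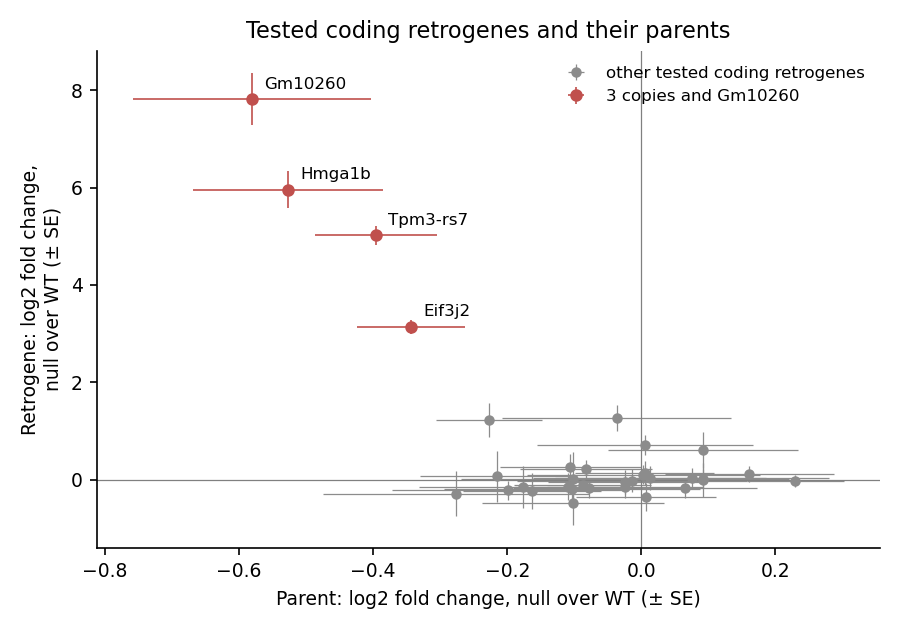
Log2 fold change of HVCN1 null over WT hearts for the 34 tested coding retrogenes (vertical axis) against that of their parents (horizontal axis), with SE bars. The 3 copies, picked for their higher counts, and Gm10260 (red) lie at 3.14 to 7.82 with parents at -0.58 to -0.34, while the others (grey) lie at -0.47 to 1.27.

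The parents were next set beside the other members of their protein families. Of 10 HMG protein genes other than Hmga1b, 8 were tested and none was called by edgeR. In the edgeR test 2 had an unadjusted p under 0.05, while DESeq2 called 1 and voom 0. Over all 14796 genes tested, edgeR called 1.14% and gave 1625 genes an unadjusted p under 0.05. DESeq2 called 466 genes in all and voom 147. In null hearts 1 of the 8 was higher and 7 were lower. Hmga1 had the lowest log2 fold change of the 8, and the genes other than Hmga1 lay between -0.41 and 0.07. Hmgb2, which bends DNA and is abundant in dividing cells, was at 7.34 ± 0.988 CPM in null and 9.74 ± 1.58 CPM in WT hearts (log2 fold change -0.41, SE 0.14, adjusted p = 0.288). As for Hmga1, its null hearts, at 6.26 to 8.65 CPM, were all below its WT hearts, at 8.78 to 12.1 CPM. Over all genes tested, 3.45% were separated in this way. Hmgb1, an HMG-box gene, was at 95.1 ± 6.50 and 96.1 ± 4.59 CPM (-0.01, SE 0.08, adjusted p = 0.986). Hmga2, the close relative of Hmga1 in the embryo, and Hmgb4 had no count in any heart.

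All 13 eIF3 subunit genes other than Eif3j2 were tested, 7 higher and 6 lower in null hearts, and none was called by edgeR. Eif3j1 was the 1 subunit gene of the 13 with an unadjusted p under 0.05 in the edgeR test. Over all genes tested, 1625 of 14796 had such a p, so nothing is read from that count. DESeq2 called 1 subunit gene and voom 0. The log2 fold change of Eif3j1, -0.34, lay outside the range of the other 12, which ran from -0.14 to 0.11. Eif3a, the largest subunit and scaffold of the complex, was at 167 ± 12.3 CPM in null and 166 ± 17.4 CPM in WT hearts (log2 fold change 0.01, SE 0.10, adjusted p = 0.995).

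Of 19 tropomyosin, tropomodulin, leiomodin and troponin genes other than Tpm3-rs7, 17 were tested and none was called by edgeR. In the edgeR test 3 had an unadjusted p under 0.05, while DESeq2 called 1 and voom 0. These counts stand beside the same 1625 of 14796 genes with such a p. The main tropomyosin of heart muscle, Tpm1, was at 5164 ± 1037 CPM in null and 6962 ± 514 CPM in WT hearts (SD, n = 4), with overlap (log2 fold change -0.43, SE 0.15, adjusted p = 0.282). Tpm4, a cytoskeletal tropomyosin, was at 114 ± 12.1 and 105 ± 11.7 CPM (0.13, SE 0.11, adjusted p = 0.808), and Tpm2 at 43.8 ± 19.2 and 53.8 ± 31.4 CPM (-0.30, SE 0.43, adjusted p = 0.898). Tnnt3, the fast skeletal troponin T, had the lowest log2 fold change, -1.16 (SE 0.49, adjusted p = 0.409), at a level near 1 CPM. The log2 fold change of Tpm3, -0.40, lay inside the range of the other 16, which ran from -1.16 to 0.32. Cardiac troponin T, Tnnt2, was at 7212 ± 1235 and 6694 ± 543 CPM (0.11, SE 0.14, adjusted p = 0.889). The median log2 fold change was -0.06 for the HMG genes, 0.01 for the eIF3 genes and -0.02 for the thin filament genes.

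Annotated genes overlap a pair of the parents. AI413582, which overlaps Hmga1 and shares 53 windows with the pair, had a log2 fold change of 0.06 (SE 0.22, adjusted p = 0.974). Of the 5780 windows of Eif3j1, 889 also occur in other genes, namely Spg11, which overlaps it, Gm3650 and the microRNA gene Gm47314. Spg11 had a log2 fold change of -0.23 (SE 0.15, adjusted p = 0.690). Whether counting used the strand of the reads is not given in the sources used here, so counts in these overlaps are uncertain.

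The genes outside the pairs whose log2 CPM followed each copy most closely over the 8 hearts were found by Pearson's r, which in these data carries mostly the gap between the groups. For Hmga1b these were H2-Ea-ps (r = 0.994), Rps15a-ps7 (r = 0.993) and Selenbp2 (r = 0.992). For Eif3j2 they were Gm14513 (r = 0.998), H2-Ea-ps (r = 0.996) and Fmn1 (r = 0.995), and for Tpm3-rs7 Gm5522 (r = 0.995), Gm14513 (r = 0.994) and H2-Ea-ps (r = 0.992). H2-Ea-ps stood among the 3 nearest genes of all 3 copies. With 0 counts in WT hearts, H2-Ea-ps, Gm14513 and Gm5522 passed the filter on low counts only through the null hearts. Hmga1b, Rps15a-ps7 and Selenbp2, with 34, 40 and 13 counts over the WT hearts, were also too low there to pass it without the null hearts. The copies were picked for the same gap between the groups, so these values of r are read no further. H2-Ea-ps is annotated as a polymorphic pseudogene of the MHC class II E alpha chain. Mice of the H2b haplotype such as C57BL/6 do not express this chain. Its mean was 10.9 CPM in null hearts, with 0 counts in the WT hearts. Rps15a-ps7, Gm14513 and Gm5522 are annotated as processed pseudogenes, and their reading frames were not examined. The 3 copies, on chromosomes 11, 18 and 14, and H2-Ea-ps, on chromosome 17, lie on other chromosomes than Hvcn1. What part a difference in genetic background between the groups has in these values was not tested.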

How the data were processed

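Poly-A RNA from 4 HVCN1 null and 4 WT mouse hearts was sequenced by the authors in paired reads, aligned with STAR and counted on genes with featureCounts, per the submitters' processing notes, which name GRCm38 (mm10); the study's text names a human genome. The deposited table holds raw, unscaled counts for 39056 genes in 8 hearts. Tool versions, the strand setting, the annotation release and the treatment of reads that match several genes are not given in the sources used here. Depth is stated as total counts, and p-values measure the spread between hearts.

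The members and gene lists were chosen with earlier results of these data known. Symbols and positions came from GENCODE M21, to which 38872 of 39056 genes matched by identifier. CPM used TMM-scaled library sizes in edgeR 4.0.16 (R 4.3.3). After filterByExpr, 14796 genes were tested by edgeR's quasi-likelihood test, with Benjamini-Hochberg adjusted p-values over all of them and a threshold of 0.05. The SE of a log2 fold change is its size divided by the square root of that test's F statistic. It is therefore approximate, above all for large changes from few WT counts, and for copies and sums it is given as a description. Sums were fitted by replacing the parent's counts with those of copy and parent. Transcripts were aligned with Biopython 1.88 and copies sought with BLAST+ 2.17.0. Tables and plots used Python 3.11.15, pandas 2.3.3 and matplotlib 3.10.9. Sequences are from GENCODE M21 transcripts and promoter values from RefSeq (GRCm38 table). No 2 hearts of a group agreed within sampling noise (chi-square per degree of freedom of at least 16.4 over 12 pairs).

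Genes named singly are the members, genes of the parents' families, other copies with at least 10 counts, called coding retrogenes, the 3 genes most like each copy, and Hvcn1. Ftl1-ps1 and Amd2 were named after their values were seen, as were the overlapping genes and Rps18. Alternatives were RLE scaling or none, low counts unfiltered or filtered at 1 CPM in 4 hearts, DESeq2 1.42.0, limma 3.58.1 voom, each heart left out, prior counts of 2 and 0.01, length scales, windows of 100 bases and 95% identity.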

Additional observations from a re-analysis of the deposited data

Results flagged for a closer look

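In 6 of the 34 sets of 4 hearts checked, 1 heart lay far from the other 3 by Dixon's test, where chance alone gives about 1 in 20 such sets; several of these sets share their counts. Hmga1b stood at 26.1 CPM in null heart 3 against 10.5 to 12.5 CPM in the other null hearts, and its share of the pair there was 55.4% against 26.1% to 27.8%. Without heart 3, the log2 fold change of Hmga1b was 5.58 and its mean share 27.0%. The share of Eif3j2 was low in null heart 2, at 14.3% against 17.1% to 17.4%. Tpm3-rs7 was low in WT heart 5, at 0.304 CPM against 0.473 to 0.494 CPM, with a share of 0.460% against 0.819% to 0.866%. Hmgb2 was high in WT heart 5, at 12.1 CPM against 8.78 to 9.21 CPM.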

How the results depend on the processing

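No paired analysis was possible because the hearts are numbered 1 to 8 without repeats. Under every scaling, filter, tool and left-out heart run, each copy stayed higher and each parent lower in null hearts. DESeq2 gave log2 fold changes of -0.51, -0.33 and -0.39 for Hmga1, Eif3j1 and Tpm3, which then passed the threshold, and it called 466 genes in all, 4 coding retrogenes outside the pairs and 1 gene in each of the HMG, eIF3 and tropomyosin lists, the parent itself. Leaving out 1 heart gave 71 to 152 DEGs (99, 103, 92, 71 and 104 without hearts 1, 3, 5, 6 and 8) and 1 to 2 coding retrogenes, the second being Ftl1-ps1 without heart 2, and the sum of the Tpm3 pair then ran from -0.05 to 0.05. With the 4 hearts of low atrial marker level or the 4 of high level alone, alternatives added after seeing the data, 71 and 24 genes were called. Each of these fits held only 2 null and 2 WT hearts. What the loss of hearts and the atrial level each did to these counts cannot be told apart. Per kilobase the sums were 0.22, 0.16 and 0.50 for the Hmga1, Eif3j and Tpm3 pairs, and the mean shares of Eif3j2 and Tpm3-rs7 were 32.6% and 47.1% in null and 4.13% and 2.09% in WT hearts. Per own window the shares of Hmga1b, Eif3j2 and Tpm3-rs7 were 75.5%, 77.0% and 70.2% in null and 3.66%, 23.0% and 5.34% in WT hearts. In windows of 100 bases, 78.8%, 84.0% and 49.8% of Hmga1b, Eif3j2 and Tpm3-rs7 occurred in the parent. The cause of differences between tools was not tested. Values of 4 to 35 counts limit the copies in WT hearts.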
